A study of Mus musculus with 58 samples.

Results

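Neutrophil granule transcripts, a set of 10 genes that neutrophils and their bone marrow precursors are known for, were followed through RNA-seq libraries of sorted mouse forebrain microglia: Camp, Ltf, Ngp, Lcn2, Mmp8, Retnlg, Elane, Mpo, S100a8 and S100a9. They are 10 of the 24940 genes listed in the count table of the age series, where all 10 also passed the filter on low counts that left 14309 genes for testing. A table of SgshKO mice given antisense oligonucleotides lists 10589 genes, among them 6 of the 10 (Camp, Ltf, Ngp, S100a8, S100a9 and Lcn2). None of the 10 had a row in the table of wild-type mice given oligonucleotides used here, which lists 10277 genes. The 10 were chosen because their measured counts rose together in SgshKO libraries. Their SgshKO to wild-type differences are therefore given as a description, and nothing is supported with a test of them; what could be tested is the effect of age in wild-type mice and of the oligonucleotides.

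Neutrophils are made in the bone marrow, and their granule proteins are transcribed in waves as the precursors mature. Genes of the azurophil (primary) granules, such as Elane and Mpo, are switched on in promyelocytes. Those of the specific (secondary) granules, such as Camp, Ltf, Ngp and Lcn2, follow in myelocytes and metamyelocytes, and those of the gelatinase granules later still. Transcription factors of the C/EBP family, PU.1 and Gfi1 drive this programme, and the circulating neutrophil has largely stopped transcribing the granule genes while it keeps S100a8 and S100a9, which encode the abundant cytosolic protein calprotectin. Microglia, the resident macrophages of the brain, come from the yolk sac and are not known to run this programme.

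The age series held wild-type (WT) and SgshKO mice on the C57BL/6 background of 3 ages: 3 WT and 4 SgshKO libraries came from mice of 3 weeks, 2 of each genotype from mice of 4 months, and 4 WT and 7 SgshKO libraries from mice of 8 months. Sgsh, the gene knocked out, encodes sulfamidase, a lysosomal enzyme that degrades heparan sulfate, and the deleted allele is not described. In the oligonucleotide experiment SgshKO mice received a non-targeting control oligonucleotide (ntc, 8 libraries) or a combination against the transcription factors Mitf and Tfe3 (combo, 8 libraries) once into a cerebral ventricle, with harvest on day 14; the ages of these mice are not given. All mice of that experiment carry the SgshKO genotype. Its titles also carry a number, grp 1 or grp 2, with 4 libraries of each treatment in each, and what the number stands for is not given. Microglia were sorted as live cells positive for CD11b and CX3CR1 and low for CD45 (another label says CD45 positive), and CD11b is also carried by neutrophils. The labels do not say whether libraries are separate animals, so p-values measure the spread between libraries, which may be technical.

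Total counts ran from 8191508 to 27106584 per library in the age series and from 12517838 to 30431437 in the SgshKO oligonucleotide libraries. Sgsh itself was still counted in SgshKO libraries (20.1 to 34.7 CPM, counts scaled to library size, at 8 months against 31.9 to 59.2 in WT), so the transcript does not check the genotype labels. Mitf fell from 72.4 ± 6.57 CPM with ntc to 15.3 ± 4.67 with combo (SD, n = 8 each), and Tfe3 from 170 ± 17.7 to 80.4 ± 5.23, with no overlap. Microglial identity was checked with 12 fixed markers, all of which were counted in every group: their summed level was 46637 to 56275 CPM in WT and 36926 to 41273 in SgshKO libraries at 8 months, and 50787 to 56939 against 33818 to 39310 at 4 months.

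The start regions of the genes show what the letters upstream of each look like. RefSeq promoters (GRCm38.p6) were matched for 10 of 10 genes, and the 250 bases before the start site are printed for Ngp, Ltf and S100a8, whose counts moved in nearly fixed proportion, and for Elane and Mpo, whose counts departed from them. Capitals mark matches, on either strand, to TTNNGNAA (a C/EBP core), GAGGAA (a PU.1 core) or TATAAA.
Ngp, chr9:110419558-110419807 (+): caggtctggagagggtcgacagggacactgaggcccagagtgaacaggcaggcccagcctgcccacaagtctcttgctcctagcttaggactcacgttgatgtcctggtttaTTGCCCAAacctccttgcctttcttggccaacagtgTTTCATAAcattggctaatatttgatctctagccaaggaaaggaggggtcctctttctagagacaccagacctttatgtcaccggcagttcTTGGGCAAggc
Ltf, chr9:111019042-111019291 (+): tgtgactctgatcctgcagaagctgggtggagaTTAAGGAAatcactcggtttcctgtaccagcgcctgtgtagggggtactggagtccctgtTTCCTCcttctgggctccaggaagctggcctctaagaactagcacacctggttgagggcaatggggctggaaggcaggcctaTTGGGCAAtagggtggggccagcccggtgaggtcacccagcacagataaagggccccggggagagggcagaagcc
S100a8, chr3:90668821-90669070 (+): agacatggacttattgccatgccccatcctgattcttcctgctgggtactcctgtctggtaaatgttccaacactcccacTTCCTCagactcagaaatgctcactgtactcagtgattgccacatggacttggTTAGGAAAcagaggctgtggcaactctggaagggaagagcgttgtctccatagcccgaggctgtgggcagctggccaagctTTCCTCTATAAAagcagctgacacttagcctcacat
Elane, chr10:79886062-79886311 (+): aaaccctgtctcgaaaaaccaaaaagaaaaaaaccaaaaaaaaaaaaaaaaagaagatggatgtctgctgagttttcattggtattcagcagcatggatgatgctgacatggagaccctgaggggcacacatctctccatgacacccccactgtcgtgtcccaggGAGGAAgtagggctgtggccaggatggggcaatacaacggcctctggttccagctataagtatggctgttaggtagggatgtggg
Mpo, chr11:87793534-87793783 (+): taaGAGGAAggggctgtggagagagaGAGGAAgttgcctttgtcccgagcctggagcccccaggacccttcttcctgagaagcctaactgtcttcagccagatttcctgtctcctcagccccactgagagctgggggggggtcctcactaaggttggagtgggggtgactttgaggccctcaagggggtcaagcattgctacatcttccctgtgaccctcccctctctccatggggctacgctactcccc
The C/EBP core was found in 7 of 10 windows, against 36.8% of 32817 mouse promoters of the same length, and the 3 without it were Camp, Elane and Mpo. GAGGAA was found in 6 of 10 windows, against 23.3% of all. TATAAA was found in S100a8 alone, where it lies directly beside a GAGGAA match, against 12.4% of all. CACGTG, the E-box that Mitf and Tfe3 are known to bind, was in 0 of 10 windows, against 6.02% of all. Such matches describe letters, not sites in use, and a missing match says only that these letters are not in this window.

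The genes lie on 6 chromosomes (mm10). Camp (chr9:109847377-109849456), Ngp (chr9:110419808-110423012) and Ltf (chr9:111019292-111042766) share a stretch of 1195 kb with 32 other listed genes. Of the 17 others tested there, 2 were called higher in SgshKO mice at 8 months, as were 21.6% of all tested genes. The median log2 difference of the 17 was 0.07. S100a8 (chr3:90669071-90670034) and S100a9 (chr3:90692630-90695721) are neighbours with no other listed gene between them. Mmp8 (chr9:7558429-7568486), Lcn2 (chr2:32384637-32387739), Elane (chr10:79886312-79888216), Mpo (chr11:87793784-87804412) and Retnlg (chr16:48872608-48874498) stand apart.

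In WT microglia the 10 transcripts were close to absent at every age. Summed over the 10, WT libraries held 1.15 to 7.68 CPM. SgshKO libraries held 1.74 to 30.9 CPM at 3 weeks, 3021 and 14908 CPM at 4 months, and 435 to 5852 CPM at 8 months. In the 4-month SgshKO libraries these 10 genes took 0.302% and 1.55% of all counts, and at 8 months 0.0433% to 0.599%. At 3 weeks the SgshKO libraries with the higher sums were replicates 1 and 4, and each gene overlapped WT there: Camp read 0 to 2.56 CPM, S100a8 0.194 to 4.60, S100a9 0.194 to 5.70, Lcn2 0 to 2.05, Mmp8 0 to 0.0475 and Mpo 0 to 0.146 CPM. WT libraries of that age read at most 0.482 CPM for Camp, 0.702 for S100a8, 1.05 for S100a9, 0.772 for Lcn2, 0.181 for Mmp8 and 0.210 for Mpo. In bulk RNA, fewer cells of a type and less RNA per cell cannot be told apart, so a level says nothing of how many cells carried it.

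**Figure D1:**
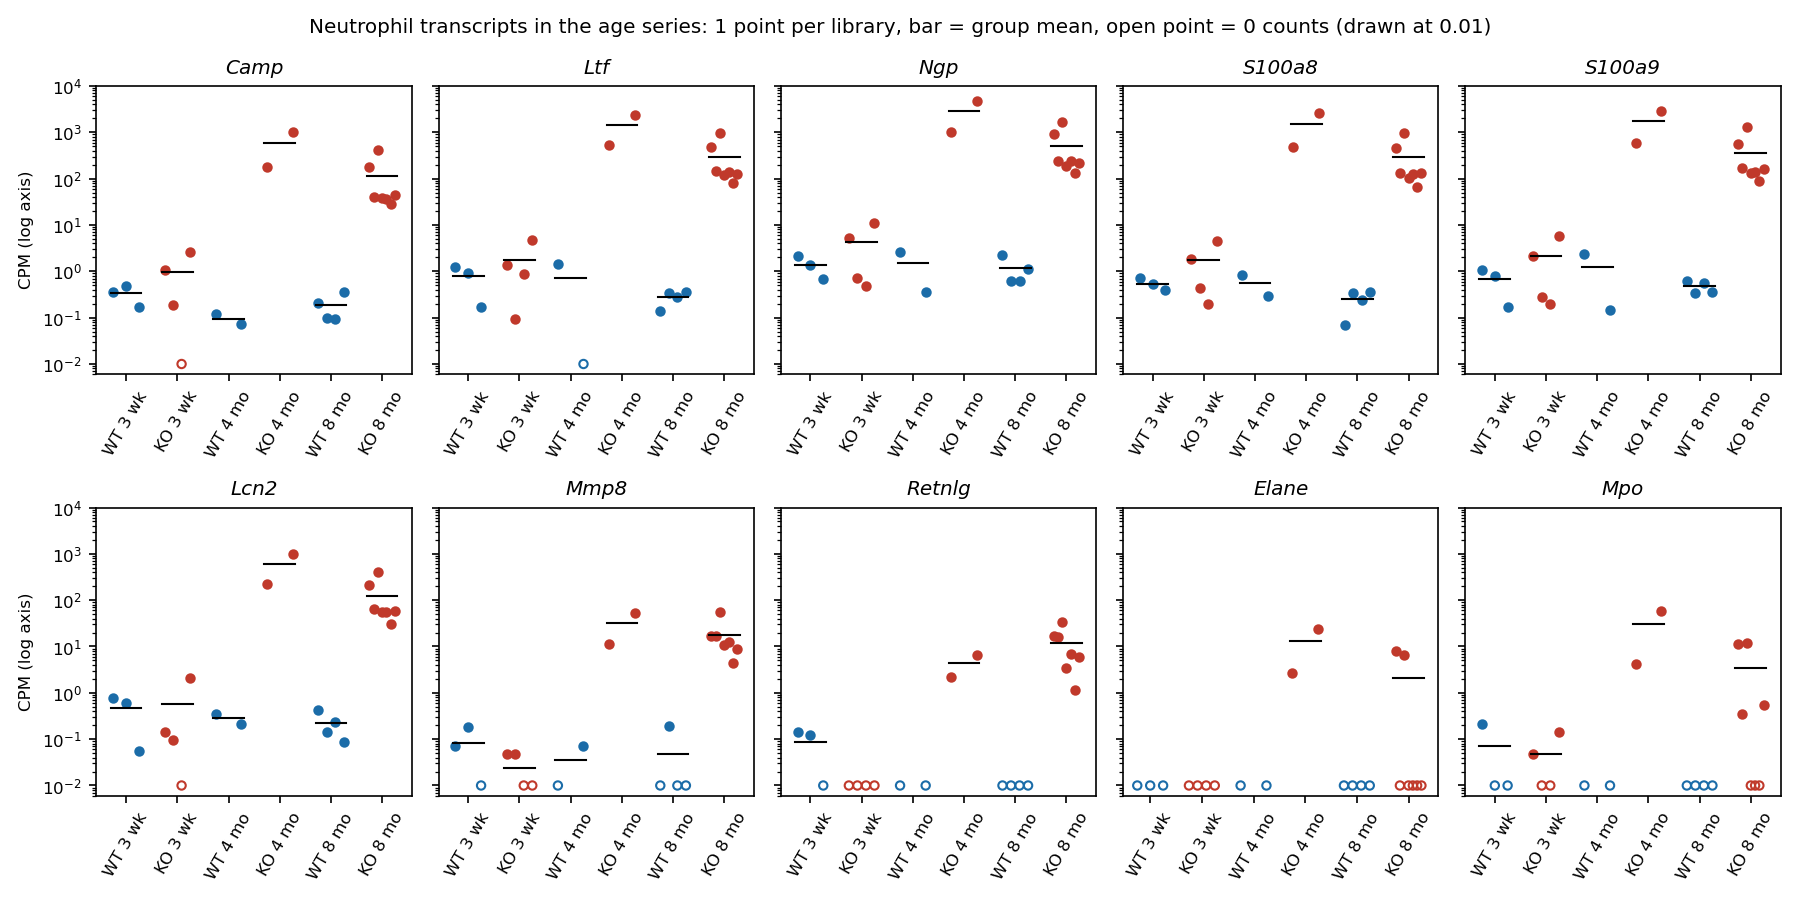
CPM of the 10 transcripts in each library of the age series on a log axis (WT blue, SgshKO red, bars are group means, open points are libraries with 0 counts drawn at 0.01). At 4 and 8 months the SgshKO points of Camp, Ltf, Ngp, S100a8, S100a9 and Lcn2 lie far above the WT points, while Elane is at 0 counts in 5 of the 7 SgshKO libraries at 8 months.

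Of the specific granule genes, Ngp encodes a cystatin-like protein of neutrophil granules, and its WT libraries read 2.10, 1.38 and 0.670 CPM at 3 weeks, 2.60 and 0.359 at 4 months, and 2.22, 0.630, 0.613 and 1.15 at 8 months. SgshKO libraries read 5.13, 0.713, 0.484 and 11.0 CPM at 3 weeks, 993 and 4822 at 4 months, and at 8 months from 132 through a median of 235 to 1654. The groups overlapped at 3 weeks and lay apart at 4 and 8 months, with log2 differences of 11.17 ± 1.58 (SE) and 8.88 ± 1.02.

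Ltf, which encodes the iron-binding lactotransferrin, read 1.42 and 0 CPM in WT and 544 and 2375 in SgshKO libraries at 4 months. At 8 months WT libraries read 0.139, 0.339, 0.283 and 0.354 CPM, and SgshKO libraries from 81.9 through a median of 138 to 984. At 3 weeks the values were 1.26, 0.903 and 0.168 CPM in WT and 1.38, 0.0951, 0.871 and 4.82 in SgshKO mice. The 4-month and 8-month groups did not overlap and the 3-week groups did. The log2 differences at 4 and 8 months were 11.36 ± 1.56 and 10.01 ± 1.09 (SE).

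Camp, the precursor of the antimicrobial peptide cathelicidin, read 0.118 and 0.0717 CPM in WT against 177 and 1014 in SgshKO libraries at 4 months. At 8 months it read 0.208, 0.0970, 0.0944 and 0.354 CPM in WT, and from 28.1 through a median of 39.8 to 418 in SgshKO libraries. Lcn2, whose protein sequesters bacterial siderophores, read 0.355 and 0.215 CPM against 223 and 1010 at 4 months. Neither gene's groups overlapped at these ages. At 8 months Lcn2 read 0.416, 0.145, 0.236 and 0.0884 CPM in WT, and from 30.5 through a median of 57 to 404 in SgshKO libraries. Camp's WT level rested on 2 counts in all at 4 months, which gives a ratio of 6672 with an exact 95% counting interval of 1847 to 55091, and on 11 counts at 8 months (685, interval 383 to 1372). These intervals, and the limits given for counts of 0, cover counting error only, since the counts carry no molecular identifiers.

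S100a8 and S100a9, which encode the pair of subunits of calprotectin, stood at 0.827 and 0.287 CPM and at 2.36 and 0.143 CPM in the WT libraries at 4 months. In the SgshKO libraries they read 479 and 2604 CPM (S100a8) and 585 and 2944 CPM (S100a9). At 8 months S100a8 read 0.0694, 0.339, 0.236 and 0.354 CPM in WT and from 66.7 through 132 to 985 in SgshKO libraries. S100a9 followed with 0.624, 0.339, 0.566 and 0.354 CPM against 89.3 through 164 to 1301. The groups lay apart at both ages, with log2 differences at 8 months of 10.12 ± 1.11 and 9.57 ± 1.10 (SE).

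Mmp8 and Retnlg were counted at a lower level. Mmp8, neutrophil collagenase, read 0 and 0.0717 CPM in WT and 11.2 and 52.3 in SgshKO libraries at 4 months. At 8 months WT libraries read 0, 0.194, 0 and 0 CPM and SgshKO libraries from 4.38 through 12.6 to 54.4. Its groups did not overlap at either age. Retnlg encodes a resistin-like secreted protein of myeloid cells. It had 0 counts in all WT libraries at 4 and 8 months, where SgshKO libraries held 2.20 and 6.53 CPM and then from 1.13 through 6.87 to 34.3. Against a floor of 3 counts over the WT group its SgshKO mean was at least 32.6-fold higher at 4 months and at least 271-fold higher at 8 months.

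The azurophil granule genes varied most between libraries. Elane, neutrophil elastase, had 0 counts in every WT library and in every SgshKO library at 3 weeks, and read 2.69 and 23.8 CPM in the SgshKO libraries at 4 months. At 8 months it was counted in SgshKO replicates 1 and 3 alone, at 8.02 and 6.69 CPM, with 0 counts in the other 5. Mpo, myeloperoxidase, read 4.28 and 57.7 CPM in SgshKO libraries at 4 months and 11.1, 0.346, 11.7, 0, 0, 0 and 0.542 at 8 months in replicates 1 to 7. Both genes thus separated the SgshKO libraries from WT at 4 months and overlapped WT at 8 months, where 0 counts stood in both groups. Against the floor of 3 counts over the WT group, Elane's SgshKO mean was at least 99.0-fold and 47.3-fold higher at 4 and 8 months. Mpo's SgshKO mean was at least 231-fold and 76.0-fold higher. At 8 months both means came almost wholly from replicates 1 and 3.

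Counted over the 10, the groups did not overlap for 0 genes at 3 weeks, 10 at 4 months and 8 at 8 months. Of all tested genes, SgshKO libraries lay wholly above WT for 10.9%, 29.8% and 14.0% at these ages. By edgeR's quasi-likelihood test with Benjamini-Hochberg adjustment, 0 of the 10 passed an adjusted p of 0.05 at 3 weeks, 9 at 4 months (not Elane) and 10 at 8 months. At 3 weeks DESeq2 also called 0, and 0 of the 10 had an unadjusted p under 0.05. Over all tested genes 5.31% were called higher and 3.72% lower at 3 weeks, 10.3% and 9.26% at 4 months, and 21.6% and 18.9% at 8 months. As the 10 were chosen on this contrast, nothing is read from these counts. Elane's call at 8 months rested on single libraries: it was lost without SgshKO replicate 1 or 3 or without any WT library. At 4 months Mpo and Retnlg lost theirs without either WT library or without SgshKO replicate 2, which left 7 calls.

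Compared per length, as TPM, a level scaled to gene length and library size, the order of the median levels in the 8-month SgshKO libraries was S100a8 (469), S100a9 (431), Ngp (293), Camp (100), Lcn2 (94.2), Ltf (72.9), Retnlg (16.4), Mmp8 (7.42), Mpo (0.204) and Elane (0). The short calprotectin messages led on this scale, whereas Ngp and Ltf ranked higher in CPM. Within single libraries this order held in 7 of 7 for each gene over the next one down, except for Camp over Lcn2 (4 of 7) and Mpo over Elane (2 of 7, with 3 at 0 for both), so these last neighbours do not differ beyond their spread. S100a8 was above S100a9 in each library, by 1.002-fold to 1.22-fold.

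The SgshKO libraries of 1 age differed widely from each other, and the same libraries were high for most of the genes. At 8 months replicate 3 was the highest library for 9 of the 10, and for Elane replicate 1 was. Replicate 1 ranked second for 8 genes, and for Mmp8 replicate 2 did (16.9 against 16.6 CPM). Replicate 6 was the lowest library for the 8 genes counted in every library. At 4 months replicate 2 exceeded replicate 1 by 4.37-fold (Ltf) to 5.71-fold (Camp) for the specific granule and calprotectin genes. Mmp8 moved by 4.65-fold, Retnlg by 2.97-fold, Elane by 8.86-fold and Mpo by 13.5-fold between the same libraries.

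**Figure D2:**
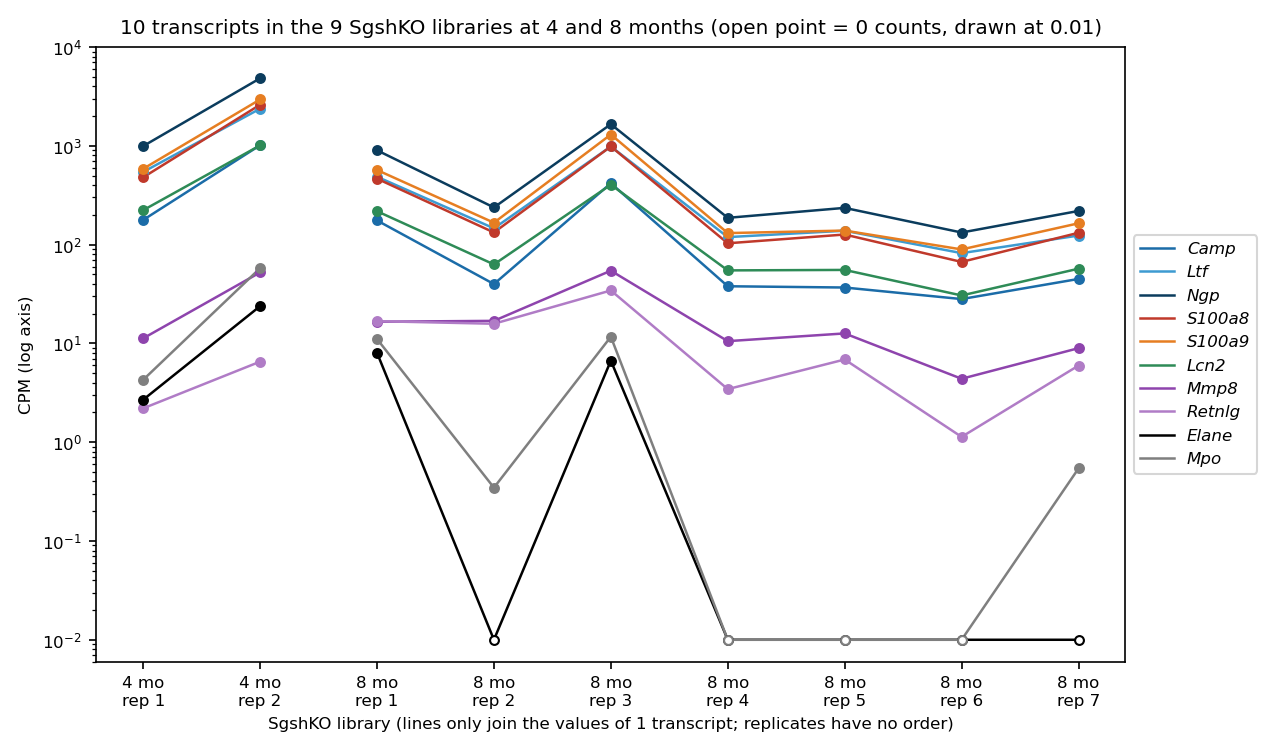
CPM of each transcript on a log axis in the 9 SgshKO libraries at 4 and 8 months, with 1 line per gene (replicates have no order) and open points for 0 counts drawn at 0.01. The lines of Camp, Ltf, Ngp, S100a8, S100a9 and Lcn2 run nearly parallel with peaks in replicate 2 at 4 months and replicate 3 at 8 months, and Elane and Mpo drop to 0 counts in several 8-month libraries.

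Ratios between genes do not depend on the total count of a library. Per 100 counts of Ngp, the 9 SgshKO libraries of 4 and 8 months held 15.6 to 25.3 counts of Camp, 49.3 to 63.8 of Ltf and 20.9 to 29.4 of Lcn2. For S100a8 the span was 48.3 to 60.1 and for S100a9 58.9 to 78.6. From the lowest to the highest library these ratios differed by 1.25-fold (S100a8) to 1.62-fold (Camp), while Ngp itself ranged from 132 to 4822 CPM.

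Mmp8, Retnlg, Elane and Mpo did not keep such a proportion. Mmp8 stood at 1.13 and 1.08 per 100 Ngp counts at 4 months and at 1.84, 7.12, 3.29, 5.65, 5.36, 3.31 and 4.08 in 8-month replicates 1 to 7. Retnlg stood at 0.222 and 0.136 at 4 months and at 1.86, 6.65, 2.08, 1.85, 2.92, 0.854 and 2.72 at 8 months. Both were thus lower per Ngp count in each 4-month library than in any 8-month library. Elane stood at 0.271 and 0.494 at 4 months, at 0.891 and 0.404 in 8-month replicates 1 and 3, and at 0 of 15552 Ngp counts over the other 5, which allows up to 0.0193 per 100. Mpo stood at 0.431 and 1.196 at 4 months and at 1.23, 0.146, 0.706, 0, 0, 0 and 0.248 at 8 months.

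**Figure D3:**
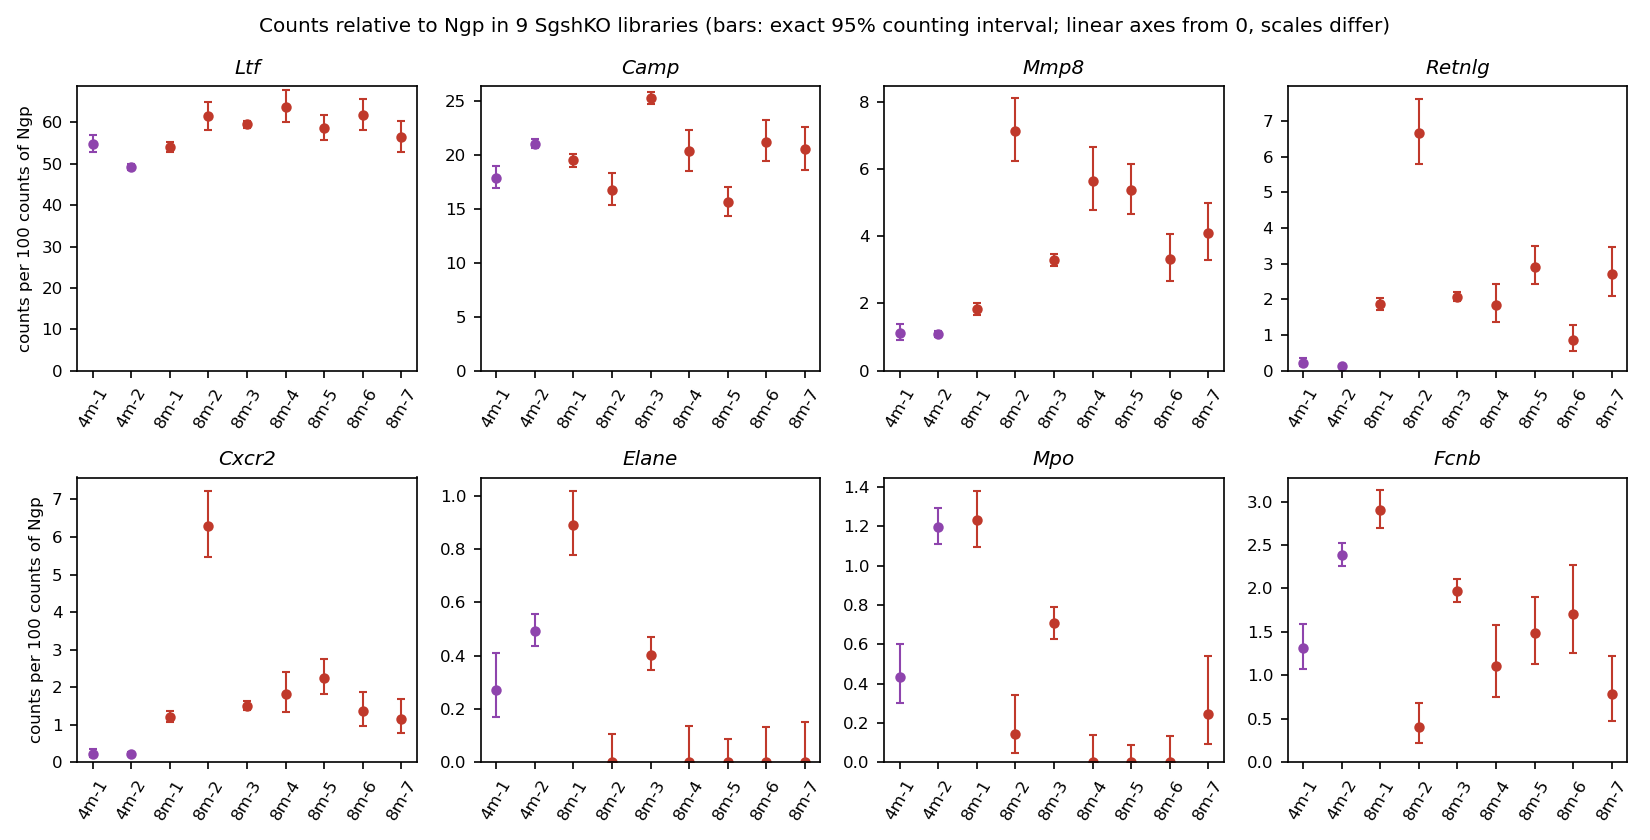
Counts of 8 genes per 100 counts of Ngp in the 9 SgshKO libraries (4m-1 is replicate 1 at 4 months, 8m-1 replicate 1 at 8 months) with exact 95% counting intervals, on linear axes from 0 whose scales differ. Ltf and Camp stay in a narrow band, Mmp8, Retnlg and Cxcr2 are lower at 4 months than at 8 months, and Elane and Mpo reach 0 counts in several 8-month libraries.

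Other genes of neutrophils and their precursors are given beside these. Prtn3, another serine protease of azurophil granules, stood at 1.26, 1.49 and 0.450 per 100 Ngp counts in 8-month replicates 1, 2 and 3, at 0 in replicates 4 and 5, and at 0.0356 and 0.124 in replicates 6 and 7. In replicate 2 it had 51 counts while Elane had 0. Fcnb, a ficolin of bone marrow precursors, was counted in all 7 libraries at 0.408 to 2.91. Cxcr2, the chemokine receptor of mature neutrophils, stood at 0.222 and 0.218 at 4 months and at 1.21, 6.30, 1.503, 1.81, 2.25, 1.35 and 1.16 at 8 months. Replicate 2 therefore held the highest share of Cxcr2, Mmp8 and Retnlg per Ngp count, and the lowest of Fcnb. Other genes of mature neutrophils differed in this. Ly6g stood at 0.825 and 0.615 at 4 months and at 0.605 to 1.62 at 8 months, so its ages overlapped. Il1r2 stood at 0 and 0.0606 at 4 months and at 0.0738 to 1.28 at 8 months.

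As a description of the shared pattern, log2 levels were correlated over the 7 SgshKO libraries of 8 months. These libraries share genotype, age and gate, and replicates 1 and 3 lie above the other 5. Over the 15 pairs of Camp, Ltf, Ngp, S100a8, S100a9 and Lcn2, Pearson's r ran from 0.988 to 0.998 and Spearman's rho from 0.821 to 1. Without replicates 1 and 3 (n = 5) r ran from 0.794 to 0.987 with a median of 0.954, and rho from 0.5 to 1 with a median of 0.9. As the genes were chosen for rising together, nothing is supported with these values. Over all 45 pairs of the 10 genes the median r was 0.939 and the lowest, between Retnlg and Elane, was 0.692. Elane and Mpo had r of 0.941 with each other, and Mmp8 and Retnlg 0.931, while pairs across these 2 kinds ran from 0.692 to 0.799. Elane had 0 counts in the 5 libraries other than replicates 1 and 3, so those replicates set its r.

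The 15 other genes with the highest median r to the 10 were Adpgk (0.992), Wfdc21, Chil3, Abca13, Inhba, Anxa1, Acsl1, Dock5, Mmp25, Lta4h, Cd24a, Acap1, Cd177, Ctsg and Rflnb (0.970), out of 14299. Of these, 5 are on the neutrophil lists (Wfdc21, Chil3, Mmp25, Cd177 and Ctsg), and 97 genes in all had a median r above 0.9. Several had a clear WT level: Adpgk read 36.3 to 38.0 CPM in WT and 37.9 to 115 in SgshKO libraries, and Acsl1 46.2 to 71.1 against 42.3 to 55.4. Others were nearly absent in WT, such as Anxa1, at 0 to 0.0944 CPM against 11.1 to 135, and Cd177, at 0.0472 to 0.208 against 12.1 to 129. Ctsg was near the floor in both, at 0 CPM in WT against a median of 0 and at most 0.831 in SgshKO libraries. By rank correlation the order differed, with Acap1 at rank 1 and Abca13 at rank 507. In the SgshKO oligonucleotide libraries 6 of the 15 were listed, and their median r to the 6 genes there was 0.942 for Chil3, 0.715 for Rflnb and 0.232 to 0.542 for Acsl1, Adpgk, Lta4h and Dock5.

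The rest of the neutrophil programme was followed through 3 lists that exclude the 10 genes. At 8 months 14 of 14 tested genes of specific and gelatinase granules were higher in SgshKO libraries (median log2 difference 7.82), 8 of 9 azurophil and progenitor genes (5.85) and 17 of 19 mature neutrophil genes (5.82), with 0 lower in each. The median over all tested genes was 0.02, and 21.6% were called higher. At 4 months the counts were 14 of 14, 7 of 9 and 10 of 19, with medians of 6.66, 8.57 and 6.60, where 10.3% of all genes were called higher. Padi4 and Slpi, for example, had 0 counts over the WT libraries of 4 and 8 months, so those libraries did not carry them past the filter. A gene absent from WT can only be called higher, and the lists were chosen with earlier results known. Nothing is therefore supported with these counts. Chil3, a chitinase-like protein, lay between 0.0884 and 0.291 CPM in WT and between 39.6 and 411 CPM in SgshKO libraries at 8 months. Mmp9, gelatinase B, lay between 0 and 0.208 CPM against 5.99 and 97.9, and Ifitm6, an interferon-induced transmembrane protein, between 0 and 0.0884 against 2.71 and 32.1. Transcription factor genes of the precursors, Cebpe and Gfi1, were among those called higher at both ages. At 3 weeks 1 gene of the 3 lists was called, Csf3r, the receptor for granulocyte colony-stimulating factor, which WT libraries also held at 757 to 884 CPM at 8 months.

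Markers of other cells moved in the same comparison, and their part in the result was not tested. Of all tested genes, 21.6% were called higher at 8 months and 10.3% at 4 months. The 10 monocyte markers summed to 17.0 to 23.2 CPM in WT and 36.4 to 122 in SgshKO libraries at 8 months, with 5 of 10 called higher, and to 64.5 and 70.7 against 175 and 335 at 4 months, with 2 of 10. None of the 10 was at 0 in the SgshKO groups. The 12 proliferation genes summed to 50.6 to 64.7 CPM against 121 to 242 at 8 months, with 9 of 12 called higher, and to 83.7 and 106 against 206 and 551 at 4 months, with 8 of 12. Replicates 1 and 3, the highest for most of the 10 genes at 8 months, read 193 and 210 CPM for proliferation and 72.6 and 122 for monocytes, and replicate 2 read 242 and 104. Of the 12 microglial markers, 10 were lower at each of these ages, with median log2 differences of -0.63 and -0.41, where 9.26% and 18.9% of all genes were lower, and Fcrls was higher at 8 months. Csf1r, the receptor microglia need for survival, differed by -0.61 and Cx3cr1, the fractalkine receptor, by -0.69 at 8 months.

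**Figure D4:**
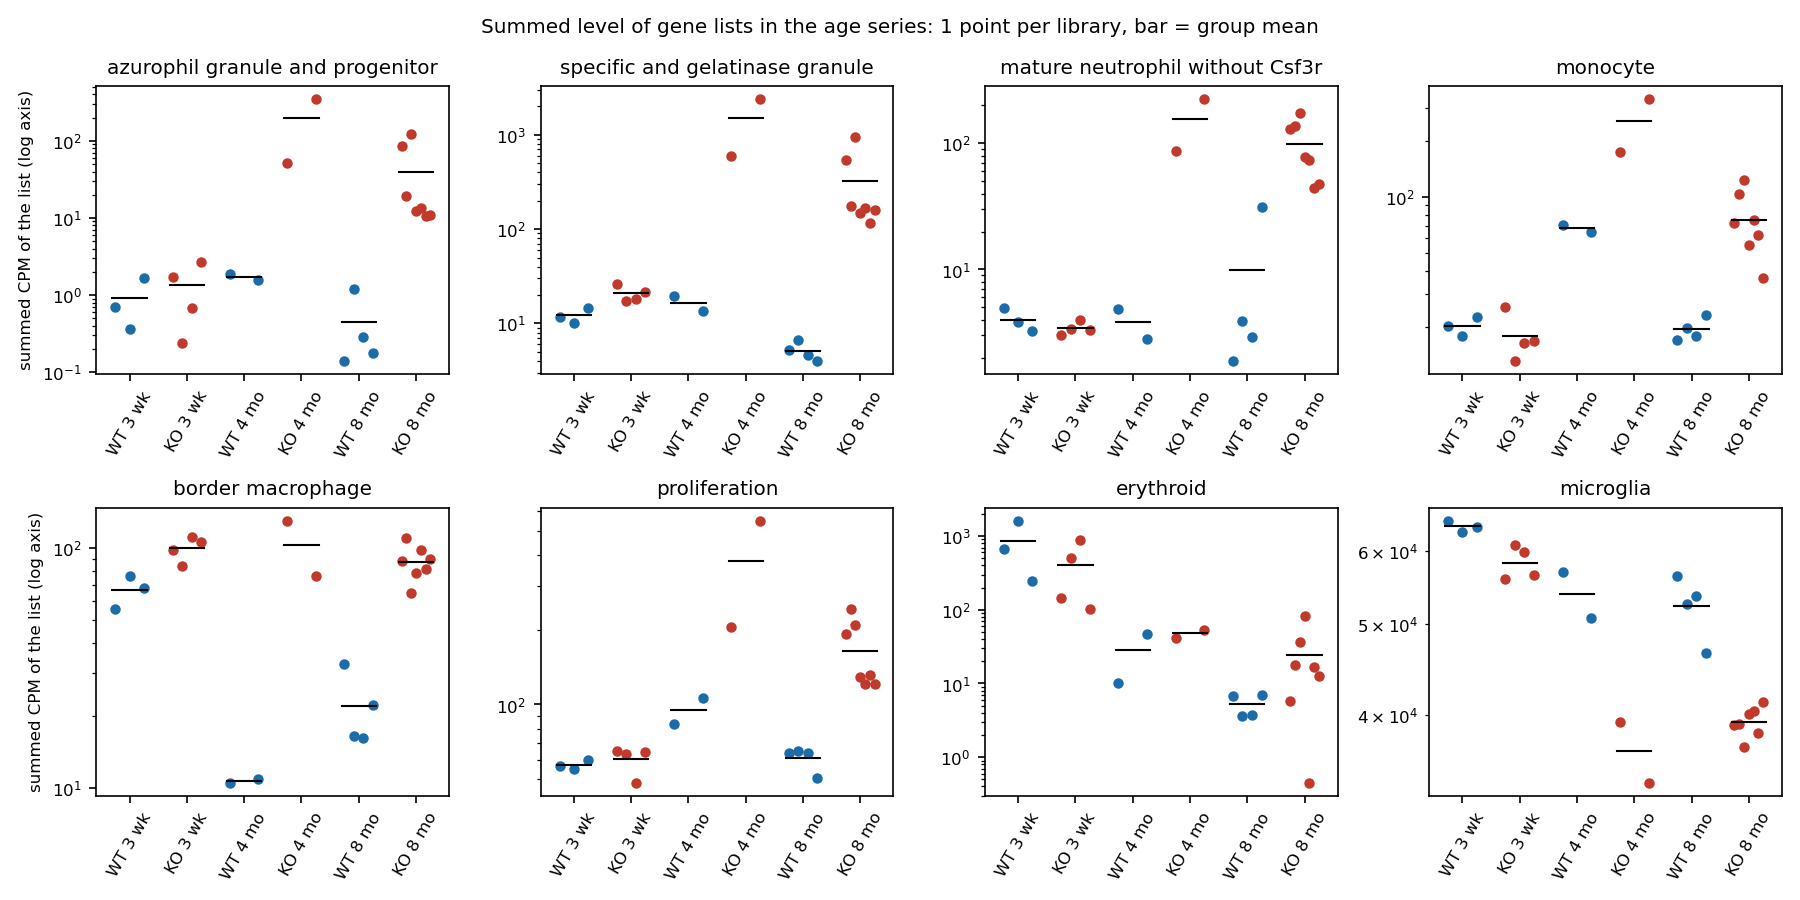
Summed CPM of 8 marker lists in each library of the age series on log axes whose ranges differ (WT blue, SgshKO red, bars are group means). The granule lists and, by a smaller step, the monocyte and proliferation lists are higher in SgshKO than in WT libraries at 4 and 8 months, and the microglial list is lower.

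Age alone was tested in WT mice, a contrast on which the 10 genes were not chosen. None of the 10 was called between 8 months and 3 weeks by edgeR, with 7.65% of all genes called in either direction. Elane, with 0 counts in every WT library, was among the tested genes through SgshKO libraries alone and could not be called. Camp, Lcn2, Mmp8, Retnlg and Mpo also passed the filter through SgshKO libraries, as their WT levels alone were too low. Camp, for example, reached at most 0.482 CPM in a WT library. The lack of a call therefore says little for these genes. DESeq2 also called 0, and 0 of the 10 had an unadjusted p under 0.05. The log2 difference was -0.32 ± 1.46 (SE) for Ngp, -0.43 ± 2.03 for S100a9, -0.44 ± 1.97 for Mmp8, -0.97 ± 2.95 for Camp, -1.004 ± 2.32 for Lcn2, -1.06 ± 2.30 for S100a8 and -1.38 ± 2.06 for Ltf. Adjusted p-values of these 7 ran from 0.785 to 0.949 by edgeR. The other genes had too few counts for a fold: Retnlg had 4 counts in the WT libraries at 3 weeks and 0 at 8 months (adjusted p = 0.529 by edgeR), Mpo 3 and 0 (0.766), and Elane 0 and 0. With at most 71 counts per gene in the 4 libraries of 8 months, a modest difference was not detectable at this depth. Of the 3 neutrophil lists, Olfm4 alone was called in this comparison, as lower at 8 months.

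In the SgshKO mice given oligonucleotides, the level of the 6 listed genes split by the grp number of the library, and the treatments overlapped. Ngp read 0.881, 0.342, 0.887 and 0.550 CPM with ntc and 0.550, 0.613, 12.8 and 0.909 with combo in grp 1. In grp 2 it read 97.7, 43.0, 182 and 25.8 CPM with ntc and 126, 27.6, 32.1 and 103 with combo. All 8 grp 2 libraries lay above all 8 grp 1 libraries, as they did for 2.03% of all genes. Combo replicate 3 of grp 1 stood apart from the other 7 libraries of grp 1 for all 6 genes.

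**Figure D5:**
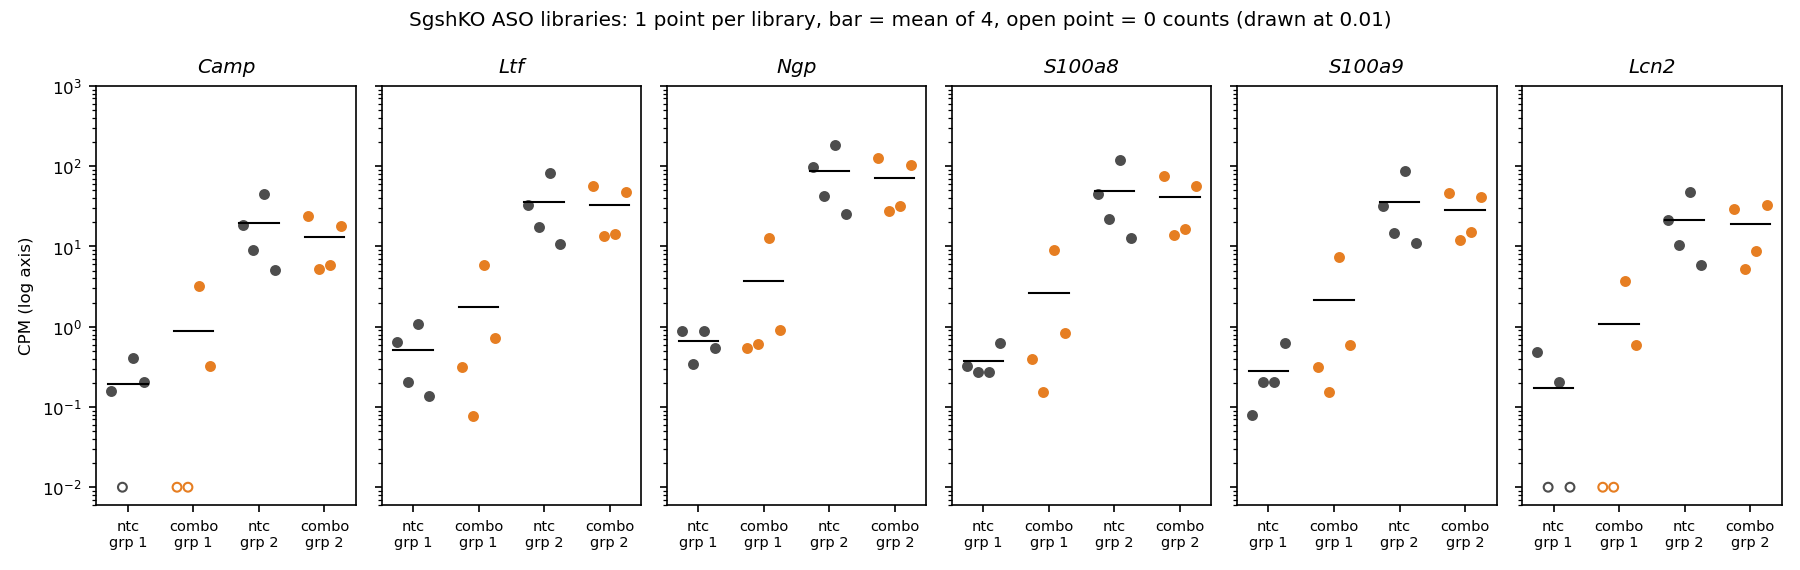
CPM of the 6 listed transcripts in the 16 SgshKO oligonucleotide libraries on a log axis, by treatment (ntc grey, combo orange) and grp, with bars at the mean of 4 and open points for 0 counts drawn at 0.01. The grp 2 points lie above the grp 1 points for each gene, and the treatments overlap within each grp.

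The other genes showed the same split. S100a8 read 0.273 to 0.619 CPM with ntc and 0.153 to 9.00 with combo in grp 1, and 12.8 to 119 and 14.0 to 76.6 in grp 2. S100a9 read 0.0801 to 0.619 and 0.153 to 7.50 in grp 1, and 11.1 to 86.5 and 12.1 to 46.3 in grp 2. Ltf read 0.137 to 1.09 and 0.0766 to 5.94 in grp 1, and 10.8 to 83.1 and 13.6 to 56.6 in grp 2. Camp and Lcn2 had 0 counts in 1 and 2 of the 4 ntc libraries and in 2 of the 4 combo libraries of grp 1. In grp 2 Camp read 5.03 to 45.3 and 5.17 to 24.1 CPM, and Lcn2 5.89 to 48.0 and 5.31 to 32.6.

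The difference between grp 2 and grp 1 was noticed in these data and is given as a description. On the log2 scale it was 5.16 for Ngp, 4.98 for Lcn2, 4.91 for S100a8, 4.89 for Ltf, 4.80 for Camp and 4.72 for S100a9, while 12.6% of all genes were called higher in grp 2. As each grp holds 4 libraries of each treatment, the treatment can be compared within it. Other lists moved less. The listed erythroid genes summed to 547 to 1020 CPM in grp 2 against 655 to 2190 in grp 1, and 4 of 5 were called lower. Mrc1, the 1 listed gene of macrophages of the meninges and vessels, was called higher, as was Csf3r of 2 listed mature neutrophil genes. Of 12 microglial genes 2 were higher and 1 lower, of 6 proliferation genes 1 was lower, and 0 of 3 listed monocyte genes were called. The part of these in the split was not tested. In the batch-corrected signal that the authors deposited, Ngp read 11.0 to 50.0 with ntc and 33.0 to 149 with combo in grp 1, and 16.6 to 119 and 18.02 to 81.4 in grp 2, so that the grp numbers overlapped on that scale. Of the 3 listed genes of the specific and gelatinase granule list, Chil3 was higher in grp 2, at 7.07 to 64.1 CPM against 0.0684 to 5.22 in grp 1. Cyp4f18, a cytochrome P450, was lower in grp 2, at 3.24 to 6.29 CPM against 7.22 to 9.93, and Olfm4 was not called.

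Combo against ntc, fitted with grp as a term, called 0 of the 6 genes by edgeR, with 9.33% of 10589 genes called in either direction. DESeq2 also called 0, and 0 of the 6 had an unadjusted p under 0.05. The log2 difference was 0.29 ± 0.65 (SE) for Lcn2, 0.27 ± 0.60 for Ngp, 0.27 ± 0.65 for S100a8, 0.26 ± 0.63 for S100a9, 0.25 ± 0.58 for Ltf and -0.06 ± 0.66 for Camp. Adjusted p-values ran from 0.822 to 0.967 by edgeR. By DESeq2 the differences of the 6 were larger, from 0.75 to 1.23, so their size depended on the method. The sign of the edgeR differences turned on combo replicate 3 of grp 1: without it they were -0.13 for Lcn2, -0.24 for Ngp, -0.15 for Ltf, -0.23 for S100a8 and -0.27 for S100a9. In a fit added after seeing the data, combo's log2 effect in grp 2 minus grp 1 was negative for each gene. It ran from -1.95 for Ltf to -3.27 for S100a9, with SE of up to 1.84 (Lcn2). No difference passed the threshold (adjusted p of 0.330 to 0.530 by edgeR). With SE of this size, the fit cannot tell whether the effect of combo differs between grp 1 and grp 2.

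Of the neutrophil lists, 1 azurophil and progenitor gene, 3 specific and gelatinase granule genes and 2 mature neutrophil genes were tested here. Lower with combo were 2 genes, where 9.33% of all genes were called in either direction. Olfm4, olfactomedin 4 of specific granules, lay between 27.7 and 34.6 CPM with ntc and between 12.5 and 27.5 with combo (log2 difference -0.44, adjusted p = 0.0231 by edgeR). Olfm4 read 30.0 to 34.6 CPM with ntc in grp 1 and 27.7 to 32.8 in grp 2, which overlap. Hcar2, a receptor for hydroxybutyrate and niacin that macrophages also carry, lay between 15.4 and 25.1 CPM with ntc and between 10.4 and 18.5 with combo (-0.59, adjusted p = 0.00243 by edgeR).

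Within these 16 libraries the 6 genes also moved together. As they were chosen for rising together in SgshKO libraries, nothing is supported with these values. After removing the mean of each treatment and grp, Pearson's r over the 15 pairs ran from 0.775 to 0.976 with a median of 0.928. Within the 8 libraries of grp 2, where counts are higher, it ran from 0.980 to 0.999. The proportions were also narrow there, with 17.3 to 24.9 counts of Camp and 46.4 to 65.5 of S100a8 per 100 counts of Ngp.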

How the data were processed

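RNA-seq of sorted forebrain microglia was analysed in 58 libraries of 13 groups, taken from the labels. The authors deposited raw counts per gene for each experiment, and for the age series also TPM, which scale for gene length and library size; STAR 2.5.3a, HOMER 4.11, kallisto 0.44.0, DESeq2 1.36.0, R 4.2.3 and mm10 are named in the submitters' processing notes without their roles. For the oligonucleotide experiments the authors also deposited a normalised, batch-corrected signal, whose method is not given in the sources used here. The age-series counts sit on RefSeq genes and the oligonucleotide counts on GENCODE genes, so levels were compared within a table only. Genes with few counts are not listed in the oligonucleotide tables.

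Counts were filtered (filterByExpr in edgeR 4.0.16, minimum count 10), scaled by TMM and fitted by edgeR's quasi-likelihood test in R 4.3.3, with all libraries of a table in 1 fit and Benjamini-Hochberg adjustment over all tested genes at 0.05. The oligonucleotide fit had grp as a term. CPM values are scaled by TMM, and correlations used log2 CPM with a prior count of 2. DESeq2 1.42.0 and limma 3.58.1 on log2(TPM + 1), log2(TPM + 0.1) and log2(signal + 1) were alternatives. A count of 0 was given a floor of 3 counts, and counting intervals are exact at 95%. On simulated data of the 8-month comparison (14309 genes), 69% of 100 genes changed by 1 on the log2 scale and 83% of 100 changed by 2 were recovered, with 5 false calls. Promoter motifs were counted in Python 3.11.15.

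The 10 genes and the marker lists were chosen with earlier results of these data known. Named besides the 10 were the 15 genes closest in pattern, up to 3 genes per list with the highest level in SgshKO libraries at 8 months, and neutrophil-list genes called in a comparison. Prtn3, Cxcr2, Ly6g, Il1r2 and Fcrls were named after their values were seen, as was the mature neutrophil list without Csf3r. Of 25 mature neutrophil genes listed, 19 were tested.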

Additional observations from a re-analysis of the deposited data

Results flagged for a closer look

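Among 37 pairs of gene and group with 4 to 10 libraries, 10 held a library far from the others by Dixon's criterion, which by chance marks about 1 in 20 groups. Since the genes move together, these are not independent. SgshKO replicate 3 at 8 months stood above the other 6 libraries for Camp (417.7 CPM), S100a9 (1301 CPM) and Mmp8 (54.4 CPM). In the ntc group, replicate 3 of grp 2 stood above the other 7 libraries for Camp (45.3 CPM), Ltf (83.1 CPM), S100a8 (119.1 CPM), S100a9 (86.5 CPM) and Lcn2 (48.0 CPM), in a group that mixes grp 1 and grp 2. At 3 weeks SgshKO replicate 4 stood apart for Lcn2, at 2.05 CPM (28 counts). WT replicate 2 at 8 months held 0.194 CPM of Mmp8 (4 counts), where the other 3 libraries had 0.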

How the results depend on the processing

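No count of calls moved by more than 1.5 times under any alternative run. Of 492 values of single genes 463 stayed the same: log2 differences kept their direction, and ratios of highest to lowest library stayed within 1.5 times. The 29 that turned were all differences that passed no threshold. Left out were genotype and WT age differences with 3 or fewer counts in a group, among them all those of Elane, Mpo and Retnlg. Lcn2 at 3 weeks turned to -0.14 with TPM + 1 and -0.73 with TPM + 0.1, and ran from -2.17 to 0.66 as libraries were left out. In WT mice at 8 months against 3 weeks, leaving out libraries gave -0.92 to 0.0328 for S100a9, -3.53 to 0.77 for Mmp8 and -0.85 to 0.0854 for Ngp. For combo against ntc, treatment without grp gave -0.0900 for Lcn2, -0.20 for Ngp, -0.0658 for Ltf, -0.20 for S100a8 and -0.22 for S100a9. Grp 2 alone, added after seeing the data, gave -0.17, -0.28, -0.13, -0.29 and -0.33 for the same genes. Ltf was -0.15 on the batch-corrected signal, and Camp was 0.75 with DESeq2. Leaving out libraries gave -0.13 to 1.004 for Lcn2, -0.24 to 0.86 for Ngp, -0.15 to 0.96 for Ltf, -0.55 to 0.71 for Camp, -0.23 to 1.08 for S100a8 and -0.27 to 1.09 for S100a9. The cause of these turns was not tested. With TPM, Elane and Mpo lost their calls at 8 months, leaving 8, and Elane gained one at 4 months with DESeq2, without the filter and with TPM.

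Same-numbered libraries of the groups correlated at -0.171 to 0.115 in the age series and at 0.0839 to 0.612 in the SgshKO oligonucleotide libraries, where 7 of 8 pairs matched their own number best, a hint from the data and not from the design. As neither the labels give a pairing nor every pair exceeded 0.1, the number was treated as a shared number only. A replicate block left 9 calls at 4 months, 10 at 8 months and 0 in the other comparisons, and turned Camp for combo against ntc to 0.00862. The comparisons of wild-type mice given oligonucleotides, and their alternatives, were not run, as that table holds none of the 10 genes.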

Other observations

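Other marker lists changed in SgshKO microglia at 8 months, where 21.6% of all genes were called higher and 18.9% lower. Of 9 tested genes of border macrophages, the macrophages of the meninges and vessels, 7 were higher, and the list summed to 16.1 to 32.8 CPM in WT and 64.9 to 110 in SgshKO libraries. Mrc1, the mannose receptor, lay between 14.4 and 31.3 CPM in WT and between 46.0 and 96.6 in SgshKO libraries. Of 4 tested platelet genes, 2 were lower and 1 higher, and Gp9, a subunit of the von Willebrand factor receptor, lay between 23.2 and 39.8 CPM in WT and between 0.624 and 3.34 in SgshKO libraries. Higher genes numbered 2 of 4 tested for lymphocytes, 2 of 8 for red cells, 1 of 1 for eosinophils, basophils and mast cells, 4 of 8 for astrocytes (1 lower), 3 of 6 for oligodendrocytes, 4 of 6 for endothelial cells (1 lower) and 0 of 5 for neurons. The red cell list ranged from 0.450 to 82.1 CPM over the 7 SgshKO libraries, with replicate 4 highest, where the neutrophil transcripts were highest in replicate 3.

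A WT library of 8 months held 31.0 CPM of the mature neutrophil list without Csf3r, against 1.87 as the lowest of the 4, and Hcar2 made up 23.2 CPM of it, while the 10 neutrophil transcripts summed to at most 3.68 CPM in the same group.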
